A study of Homo sapiens with 6 samples.

Results

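The transcripts described here are those of the AP-1 transcription factor family and 3 genes induced together with it, in ovarian carcinoma cells depleted of the histone acetyltransferase HBO1. The members are FOS, FOSB, FOSL1, FOSL2, JUN, JUNB, JUND, ATF3, EGR1 and MAFF, which make 10 of the 20044 genes named on the array. They were chosen by name as a family, with their differences between HBO1 siRNA and control siRNA already known, so their values in that comparison are a description and support nothing. All probes annotated to a member were taken, 14 in all, and each probe was read on its own.

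AP-1 is a dimer of basic leucine zipper (bZIP) proteins that binds short palindromic DNA sites. Fos proteins do not pair with each other and need a Jun partner, whereas Jun proteins also form dimers among themselves, and the makeup of the dimer sets how strongly it activates. FOS, FOSB, JUN, JUNB, ATF3 and EGR1 are classical immediate early genes, switched on by growth factors and stress through MAP kinases and then off again, while FOSL1 follows later and stays up under continued ERK signalling, as in many carcinomas.

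UWB1.289 is a human ovarian carcinoma line that lacks functional BRCA1. The cells were kept in DMEM/F-12 medium and transfected in multiwell plates with siRNA against HBO1 (gene KAT7) or with a scramble siRNA, and total RNA was taken at 48 h. There were 3 Illumina bead arrays per group, named here by group and replicate number. The model is 1 cell line and 1 time point, and the sources used here do not give the siRNA sequences. The labels do not state separate cultures for the replicates, and the p-values therefore rest on a spread between samples that may be technical alone. In bulk RNA, a change in the share of cells that carry a transcript and a change in transcript per cell cannot be told apart.

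Between 20546 and 21507 of 47316 probes were detected per array, which means a signal above the array's negative controls at p under 0.05. The siRNA target KAT7 averaged 7.82 ± 0.23 (SD, n = 3) on the normalised log2 scale in control cells and 5.95 ± 0.35 (SD, n = 3) after HBO1 siRNA (log2 fold change -1.87, limma adjusted p = 0.0187). Probes for all 6 epithelial markers and all 4 ovarian carcinoma markers were measured, and CDH1 and MUC16 rose among them (log2 fold changes 0.76 and 1.33). WT1, an ovarian marker, was at -0.53 without passing (limma adjusted p = 0.113) and was detected on 3 of 3 control arrays and 1 of 3 HBO1 siRNA arrays. Of 14 markers of fibroblasts, immune cells and endothelium, 7 were measured and 0 passed the test in limma, while 3 of them were higher at an unadjusted p under 0.05: CD14 was at 0.79, PECAM1 at 0.68 and COL1A2 at 0.33 on the log2 fold change scale. Over all tested probes, 4570 of 21333 had an unadjusted p under 0.05 in limma. The part of these markers in the results was not tested.

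RefSeq promoter windows (GRCh38.p14, 250 bases before to 50 after the start) matched 9 of the 10 members in 11 windows, and FOSL1 was not matched. Both strands were searched for the AP-1 site TGACTCA, the cAMP response element (CRE) TGACGTCA, the CArG box bound by serum response factor, the GC box GGGCGG and TATAAA. Matches of different motifs shared a base in 0 of the 11 windows. Over all 35116 windows these motifs occurred in 4.95% (AP-1), 1.85% (CRE), 45.0% (GC box) and 11.5% (TATAAA), and the CArG box in 454 windows. An AP-1 site lay in 1 of the 11 windows (FOSL2), a CRE in 2 (JUND and MAFF), a CArG box in 1 (EGR1), a GC box in 8 and TATAAA in 4. The MAFF window with a CRE, the JUNB window and the EGR1 window with CArG boxes are shown as examples of windows that hold a motif of inducible promoters. Windows not printed hold such motifs too: JUND a CRE, FOS, FOSB and an ATF3 window TATAAA, and FOSL2 an AP-1 site. The second MAFF window, chr22:38202770-38203069, holds no CRE and is not printed. Capitals mark AP-1, CRE, CArG and TATAAA matches, and a match is a description of letters, not of binding.
MAFF, chr22:38201744-38202043, plus strand: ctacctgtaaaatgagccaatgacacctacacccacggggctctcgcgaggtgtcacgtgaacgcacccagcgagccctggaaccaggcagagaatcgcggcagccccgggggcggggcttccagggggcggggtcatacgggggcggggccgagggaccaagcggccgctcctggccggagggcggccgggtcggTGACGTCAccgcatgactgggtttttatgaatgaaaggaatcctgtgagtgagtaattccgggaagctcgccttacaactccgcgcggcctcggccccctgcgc
JUNB, chr19:12791236-12791535, plus strand: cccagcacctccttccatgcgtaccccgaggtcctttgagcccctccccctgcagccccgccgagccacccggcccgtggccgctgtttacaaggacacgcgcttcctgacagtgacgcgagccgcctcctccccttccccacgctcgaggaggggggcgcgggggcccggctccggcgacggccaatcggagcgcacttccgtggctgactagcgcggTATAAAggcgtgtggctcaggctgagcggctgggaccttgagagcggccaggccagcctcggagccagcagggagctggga
EGR1, chr5:138465229-138465528, plus strand: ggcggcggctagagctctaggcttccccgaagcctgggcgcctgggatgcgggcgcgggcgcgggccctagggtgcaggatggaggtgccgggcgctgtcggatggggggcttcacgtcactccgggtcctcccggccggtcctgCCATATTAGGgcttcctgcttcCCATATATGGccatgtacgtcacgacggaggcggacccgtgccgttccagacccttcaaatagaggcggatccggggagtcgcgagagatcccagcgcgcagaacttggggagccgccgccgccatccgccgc
The MAFF window holds its CRE at positions -54 to -47 from the start, the JUNB window its TATAAA at -31 to -26, and the EGR1 window its CArG boxes at -105 to -96 and -83 to -74.

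Within the family, FOSL1 and 1 of 3 MAFF probes were lower after HBO1 siRNA with an adjusted p under 0.05. A second MAFF probe was lower and JUNB was higher with groups that did not overlap, but neither passed the threshold. The groups overlapped for the third MAFF probe and for FOSB, FOSL2, JUN, JUND, ATF3 and EGR1. Of the 14 member probes, 11 were detected on at least 3 of 6 arrays and entered the test, and all 11 were detected on all 6. The other 3 are the FOS probe and a pair of ATF3 probes. In limma's test over all 21333 tested probes with Benjamini-Hochberg adjustment, 2 of the 11 member probes had an adjusted p under 0.05 (called below), both lower, against 2.73% of all tested probes. Of the 582 probes called in all, 54.0% were higher, and 38.3% were higher with median scaling in place of quantile normalisation. The groups did not overlap for 4 of the 11, against 27.1% of all tested probes. Because the contrast was used in choosing the members, nothing is read from these shares.

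**Figure D1:**
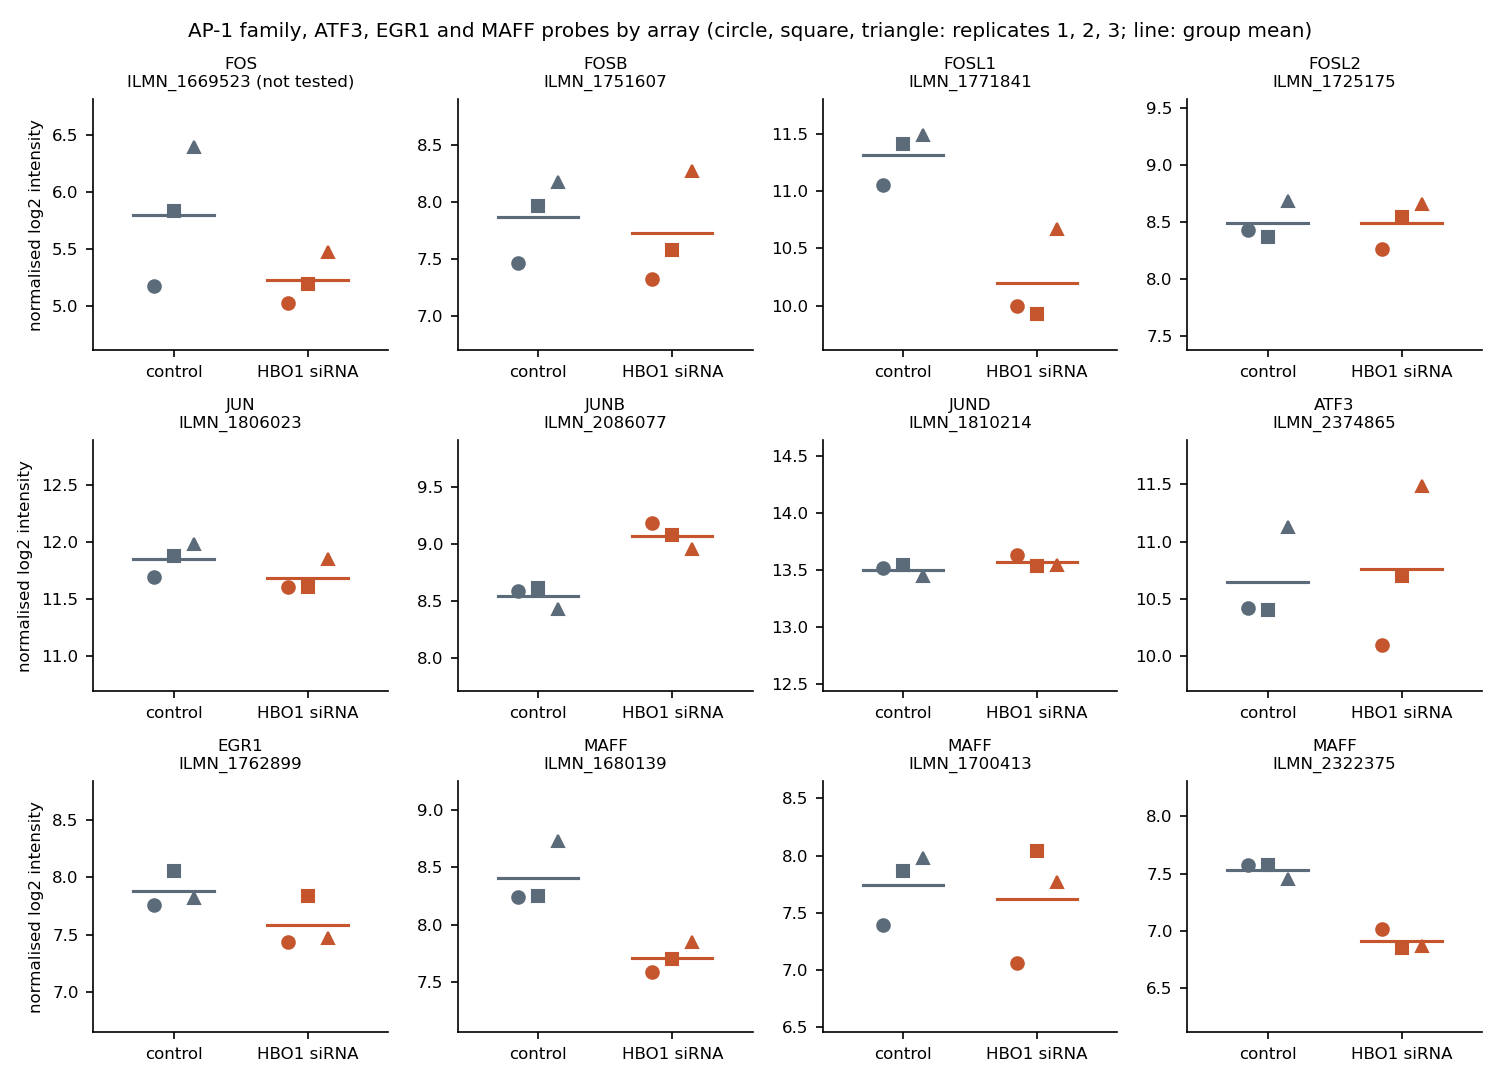
Normalised log2 intensity (y axis, each panel spanning the same range of log2 units) of the 12 member probes detected on any array, by group (x axis). Points are arrays, with a circle, square and triangle for replicates 1, 2 and 3, and lines are group means. FOSL1, JUNB and the MAFF probes ILMN_1680139 and ILMN_2322375 show groups that do not overlap.

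FOSL1 encodes FRA1, a Fos protein that lacks the strong activation domain of FOS and marks invasive carcinoma cells. Its single probe (ILMN_1771841) read a raw bead signal of 2450, 3184 and 2932 on control replicates 1, 2 and 3, and of 1180, 1083 and 1816 on HBO1 siRNA replicates 1, 2 and 3. As normalised log2 intensity these were 11.06, 11.42 and 11.49 against 10.001, 9.93 and 10.67. Each HBO1 siRNA array lay below each control array, and HBO1 siRNA replicate 3 lay nearest to the controls. The means were 11.32 ± 0.23 (SD, n = 3) and 10.20 ± 0.41 (SD, n = 3), a log2 fold change of -1.12 (SE 0.22, 95% confidence interval -1.64 to -0.61), which left 45.9% of the control signal. The limma adjusted p over all probes was 0.0487, just inside the threshold. The call was lost under 7 of 14 alternatives, among them leaving out control replicate 1 (0.073), 2 (0.16) or 3 (0.158) or HBO1 siRNA replicate 1 (0.128) or 2 (0.141), and with no detection filter (0.0778), while the log2 fold change stayed between -1.36 and -0.99 over all 14 alternatives.

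Of the other Fos genes, FOS was not tested, and FOSB and FOSL2 were not called. FOS, the founding member, was close to background: it was detected on control replicates 2 and 3 and on 0 of 3 HBO1 siRNA arrays. Its probe (ILMN_1669523) read log2 intensities of 5.17, 5.83 and 6.39 in control cells and 5.03, 5.19 and 5.47 in HBO1 siRNA cells. The groups overlapped, and no fold is given because the control mean of 5.80 lay below the mean of the lowest detected signals on the 3 HBO1 siRNA arrays. FOSB, which is induced with FOS by growth factors, read 7.47, 7.97 and 8.17 in control cells and 7.33, 7.58 and 8.27 in HBO1 siRNA cells, so the highest and the lowest array were both in the HBO1 siRNA group. Its log2 fold change of -0.14 had a 95% confidence interval from -0.79 to 0.51. FOSL2, which encodes FRA2, read 8.43, 8.37 and 8.69 against 8.27, 8.54 and 8.66, a log2 fold change of -0.01 (95% confidence interval -0.34 to 0.32). The intervals of FOSB and FOSL2 do not reach the -1.12 of FOSL1, although that of FOSB overlaps the FOSL1 interval, and differences between the probes were not tested.

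Among the Jun genes, only JUNB had groups that did not overlap, which also held for 27.1% of all tested probes. Differences between the Jun probes were not tested. JUNB encodes a Jun protein that activates less strongly than JUN and can oppose it. Its probe (ILMN_2086077) read 8.59, 8.62 and 8.43 in control cells and 9.18, 9.07 and 8.95 in HBO1 siRNA cells. All HBO1 siRNA arrays lay above all control arrays, with means of 8.55 ± 0.10 (SD, n = 3) and 9.07 ± 0.12 (SD, n = 3). The log2 fold change was 0.52 (SE 0.10, 95% confidence interval 0.28 to 0.77), or 1.44-fold, with a limma adjusted p = 0.051, just outside the threshold. It was called under 5 of 14 alternatives, where the adjusted p lay between 0.0128 and 0.0335, and its log2 fold change ranged from 0.37 to 0.58.

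JUN, the strongest activator of the Jun proteins, read 11.69, 11.87 and 11.98 in control cells and 11.61, 11.60 and 11.85 in HBO1 siRNA cells. The groups overlapped through HBO1 siRNA replicate 3, and the log2 fold change was -0.16 (95% confidence interval -0.44 to 0.12). JUND, the Jun gene that is expressed in resting cells rather than induced, read 13.52, 13.54 and 13.45 against 13.63, 13.53 and 13.55. Its log2 fold change of 0.07 (95% confidence interval -0.14 to 0.27) had the narrowest interval among the member probes, and its sign turned with median scaling (-0.0091).

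**Figure D2:**
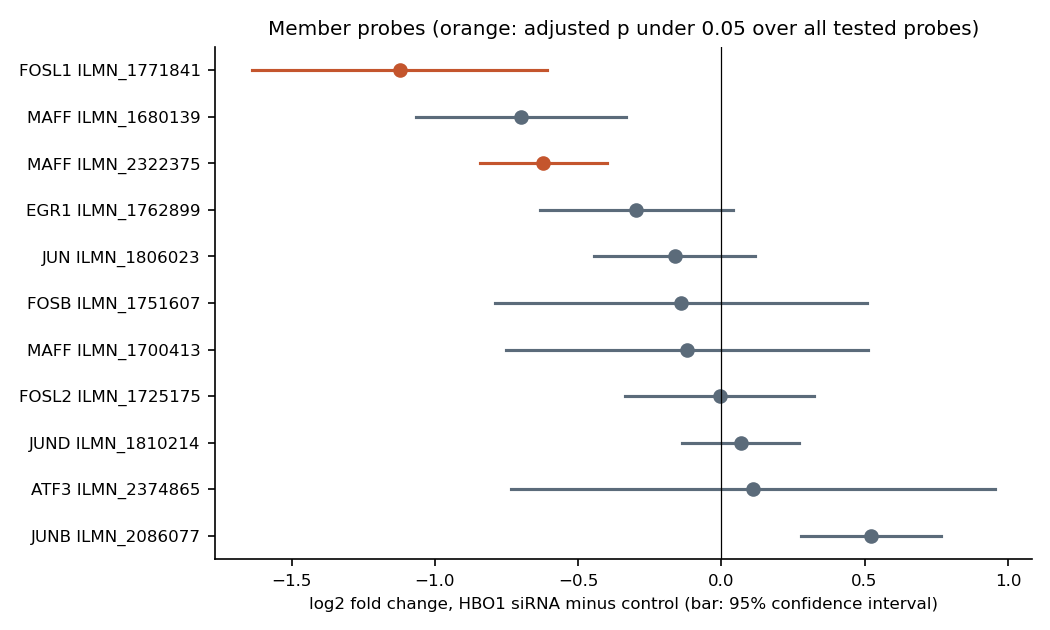
Log2 fold change, HBO1 siRNA minus control (x axis), of the 11 tested member probes (y axis), with 95% confidence intervals from limma as bars. FOSL1 at -1.12 and MAFF ILMN_2322375 at -0.62, in orange, had an adjusted p under 0.05. Of the uncalled probes, JUNB at 0.52 had an interval above 0 and MAFF ILMN_1680139 at -0.70 an interval below 0.

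ATF3 is a stress-induced member of the ATF/CREB family that pairs with Jun proteins and represses as a dimer with itself. It has 3 probes, and the 2 probes ILMN_1791346 and ILMN_1661109 were undetected on all 6 arrays, so the gene is read from ILMN_2374865 alone. The platform annotation lists ILMN_2374865 and ILMN_1791346 under the same transcript. ILMN_2374865 read 10.42, 10.40 and 11.12 in control cells and 10.10, 10.70 and 11.48 in HBO1 siRNA cells. Its raw bead signal ran from 1243 on HBO1 siRNA replicate 1 to 3034 on HBO1 siRNA replicate 3, which is a wider range than between the control arrays (1664 to 2331). At a log2 fold change of 0.11, its 95% confidence interval ran from -0.74 to 0.95, the widest among the member probes, so neither a moderate fall nor a moderate rise of ATF3 was detectable.

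EGR1 encodes a zinc finger activator induced by serum response factor, with no leucine zipper. Its probe (ILMN_1762899) read 7.76, 8.05 and 7.82 in control cells and 7.43, 7.84 and 7.47 in HBO1 siRNA cells. The groups overlapped through HBO1 siRNA replicate 2, and the log2 fold change was -0.30 (95% confidence interval -0.63 to 0.04).

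MAFF encodes a small Maf protein, a bZIP factor with no activation domain of its own that pairs with NRF2 and BACH proteins. Its 3 probes did not read alike. ILMN_2322375 read 7.57, 7.57 and 7.45 in control cells and 7.02, 6.85 and 6.87 in HBO1 siRNA cells, and its groups did not overlap. Its log2 fold change was -0.62 (SE 0.09, 95% confidence interval -0.84 to -0.40; limma adjusted p = 0.0289). ILMN_1680139 read 8.24, 8.25 and 8.73 against 7.58, 7.70 and 7.85, also without overlap, with a log2 fold change of -0.70 (SE 0.16, 95% confidence interval -1.06 to -0.33; limma adjusted p = 0.0633). ILMN_1700413 read 7.39, 7.86 and 7.97 against 7.06, 8.04 and 7.77, which overlapped widely, with a log2 fold change of -0.12 (95% confidence interval -0.75 to 0.51). Without background correction the first of these was at -0.28 and the second at -0.41, and ILMN_2322375 lost its call on leaving out any 1 of the 6 arrays (adjusted p from 0.0563 to 0.125). ILMN_1680139 was called under 6 of 14 alternatives, 0 of them with an array left out.

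**Figure D3:**
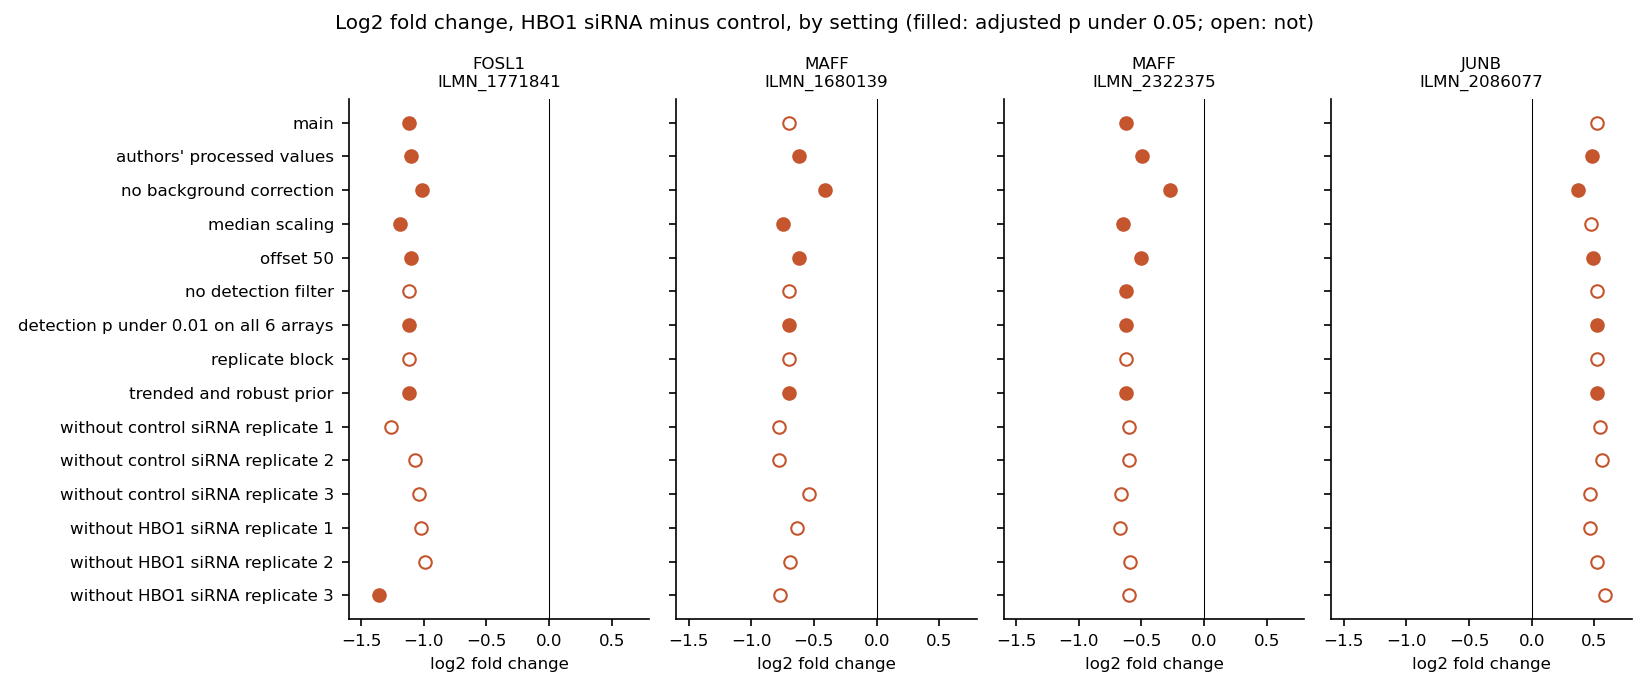
Log2 fold change, HBO1 siRNA minus control (x axis), of 4 member probes under the main setting and 14 alternatives (y axis), with filled points for an adjusted p under 0.05. FOSL1 and both MAFF probes stay below 0 and JUNB stays above 0 throughout, while the calls change, and the MAFF probe ILMN_2322375 shrinks to -0.28 without background correction.

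The spread between arrays of one group differed widely within the family. It enters the SE and p-values of the contrast, which was known when the members were chosen, so it is a description too. The pooled within-group SD was set against the tested probes within 0.5 log2 units of the same mean intensity. ATF3 lay at the 99.8th percentile (SD 0.57), FOSL1 at the 98.8th (SD 0.33), FOSB at the 97.5th (SD 0.43) and MAFF ILMN_1700413 at the 97.4th (SD 0.42). The other 7 tested member probes lay between the 3.58th percentile, for MAFF ILMN_2322375, and the 76.0th, for JUN. For 6 of the 11, replicate 3 was the highest array in both groups, and these were FOSB, FOSL1, FOSL2, JUN, ATF3 and MAFF ILMN_1680139. JUNB went the other way, with replicate 3 as its lowest array in both groups. Percentiles are descriptions over probes, which are not independent.

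**Figure D4:**
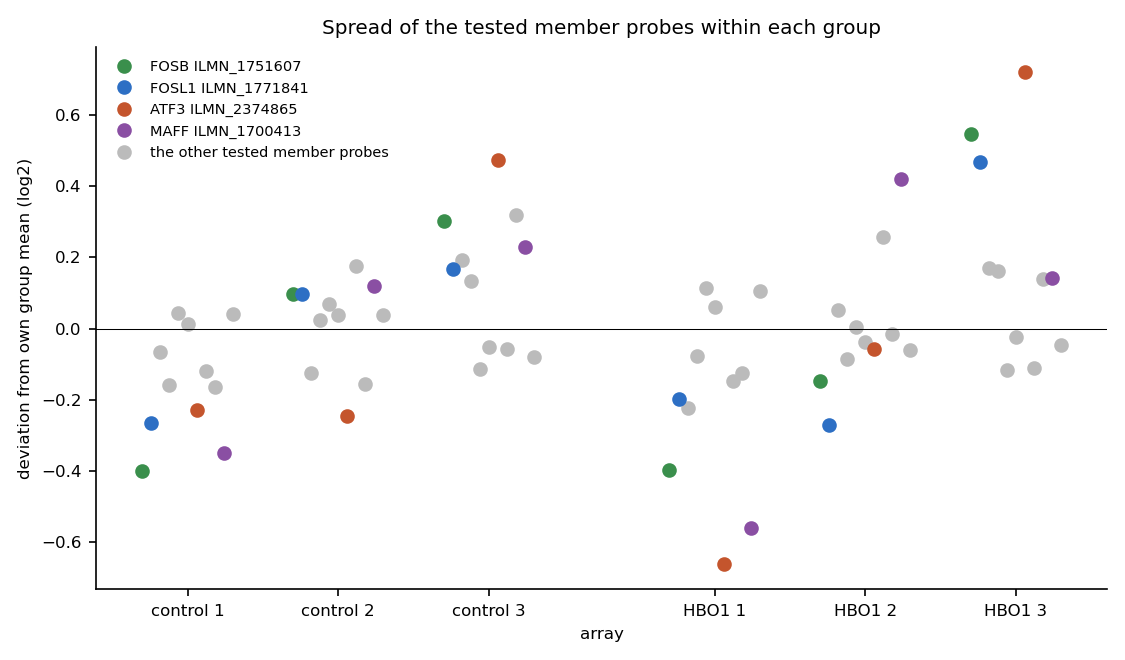
Deviation of each tested member probe from its own group mean in log2 units (y axis) by array (x axis), with the 4 most variable probes for their intensity in colour. ATF3, FOSB and FOSL1 lie highest on HBO1 siRNA replicate 3, and all 4 lie below their group means on replicate 1 of both groups.

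By the likeness of its profile over the 6 arrays, after each gene was centred on its own mean, FOSL1 was nearest to ERVMER34-1, an endogenous retroviral envelope gene (root mean square difference 0.13 log2 units). It was followed by SLC7A2, a transporter of cationic amino acids (0.17), ADAMTS6, a secreted metalloprotease (0.17), SNORA26, a small nucleolar RNA (0.17), and PLAGL2, a zinc finger transcription factor (0.17), among 12218 genes searched. The search used all 6 values and so included the difference between the groups. Log2 fold changes near that of FOSL1 therefore follow from the search and are no separate result. They lay between -1.15 for ADAMTS6 and -0.90 for SNORA26, which was detected on 2 of 3 HBO1 siRNA arrays. ERVMER34-1 and PLAGL2 were called, while SLC7A2, ADAMTS6 and SNORA26 were not (limma adjusted p = 0.0753, 0.105 and 0.1075). The ADAMTS6 groups overlapped.

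The genes around AP-1 changed in small numbers and in both directions. They were taken from 5 lists, each gene by its brightest tested probe. Over all 12227 tested genes, 3.19% were called, 1.91% higher and 1.28% lower, and the median log2 fold change was 0.01. Calls in limma's test refer to the adjusted p over all tested probes.

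Of 30 bZIP partners and relatives, 23 were measured, BACH2 rose, CREB5 fell and 21 were not called, with a list median of 0.07. BACH2, a repressor that pairs with small Maf proteins, read 6.93, 6.85 and 7.15 in control cells and 7.60, 7.58 and 7.73 in HBO1 siRNA cells. Its log2 fold change was 0.66 (SE 0.11, adjusted p = 0.0343), while its second probe was at 0.29 (adjusted p = 0.226), and it was 0.30 without background correction. CREB5, a bZIP activator that can pair with JUN, read 9.31, 9.60 and 9.36 in control cells and 8.72, 8.15 and 8.64 in HBO1 siRNA cells. Its log2 fold change was -0.93 (SE 0.17, adjusted p = 0.0429). Its second probe was undetected on all 3 HBO1 siRNA arrays, with a fitted log2 fold change of -0.37 (95% confidence interval -0.79 to 0.04, adjusted p = 0.279). With those arrays set no lower than their lowest detected signals, the control mean of that probe was 1.19-fold higher, and the interval includes no change. BACH2 and CREB5 each lost their call on leaving out any 1 array, with adjusted p from 0.0636 to 0.137 for BACH2 and from 0.0616 to 0.15 for CREB5. With no detection filter the adjusted p was 0.0584 for BACH2 and 0.0691 for CREB5.

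Of 44 other immediate early and early response genes, 36 were measured, with 2 higher, 1 lower, 33 not called and a list median of -0.02. BHLHE40, a basic helix-loop-helix repressor that also acts in the circadian clock, read 10.10, 10.36 and 10.53 in control cells and 11.15, 11.22 and 11.22 in HBO1 siRNA cells, and rose by 0.87 (SE 0.13, adjusted p = 0.0269). BTG1, an antiproliferative cofactor of deadenylation, read 12.84, 12.75 and 12.83 against 13.39, 13.40 and 13.46, and rose by 0.61 (SE 0.09, adjusted p = 0.0266). HBEGF, a membrane-bound ligand of the EGF receptor, read 10.56, 11.05 and 10.97 against 9.90, 9.77 and 10.12, and fell by 0.93 (SE 0.16, adjusted p = 0.036). BHLHE40 and BTG1 lost their call on leaving out any 1 array (adjusted p from 0.0518 to 0.118), and HBEGF on leaving out any but control replicate 1 (adjusted p from 0.048 to 0.137 over the 6) and with no detection filter (0.0577).

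Of 42 upstream kinases and factors, 35 were measured and 0 were called by limma. At an unadjusted p under 0.05 there were 2 higher and 3 lower, and the list median was -0.01. Over all tested probes, 4570 of 21333 had an unadjusted p under 0.05 in limma. The 2 nearest the threshold were MAP2K6, a kinase that activates p38, at 1.07 (SE 0.21, adjusted p = 0.0511, detected on 2 of 3 control arrays), and ELK4, an ETS partner of serum response factor, at -0.62 (SE 0.13, adjusted p = 0.0518). Of 22 genes of AP-1 turnover and its cofactors, 16 were measured and 0 were called by limma. At an unadjusted p under 0.05 there were 3 higher and 0 lower, beside the same 4570 of 21333 over all probes. The list median was 0.06. The 2 nearest were BCL6, a transcriptional repressor, at 0.42 (SE 0.11, adjusted p = 0.0818), and NCOA1, a nuclear receptor coactivator that also binds AP-1, at 0.41 (SE 0.10, adjusted p = 0.0859).

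Of 50 genes described as AP-1 targets, 37 were measured, with 3 higher, 0 lower and 34 not called, and a list median of 0.004. CDKN1A, which encodes the cyclin-dependent kinase inhibitor p21, read 10.14, 10.12 and 10.20 in control cells and 11.29, 11.46 and 11.10 in HBO1 siRNA cells, and rose by 1.13 (SE 0.11, adjusted p = 0.0187). MMP10, which encodes the matrix protease stromelysin-2, read 5.59, 5.38 and 5.81 against 6.56, 6.62 and 6.64, with a fitted log2 fold change of 1.02 (SE 0.12, adjusted p = 0.021). It was detected on 1 of 3 control arrays, and its control mean of 5.59 lay below the lowest detected signal of each control array (5.76 to 5.79), so the size of its change rests on values near background. MMP14, a membrane-anchored matrix protease, read 6.65, 6.39 and 6.46 against 7.01, 7.24 and 7.30, and rose by 0.68 (SE 0.12, adjusted p = 0.0392). Without background correction MMP10 was at 0.30 and MMP14 at 0.26. MMP14 lost its call on leaving out any 1 array (adjusted p from 0.0634 to 0.146) and with no detection filter (0.0655), MMP10 on leaving out any but HBO1 siRNA replicate 3 (0.0491 to 0.0967), and CDKN1A on leaving out any but control replicate 1 or HBO1 siRNA replicate 3 (0.0308 to 0.0967).

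**Figure D5:**
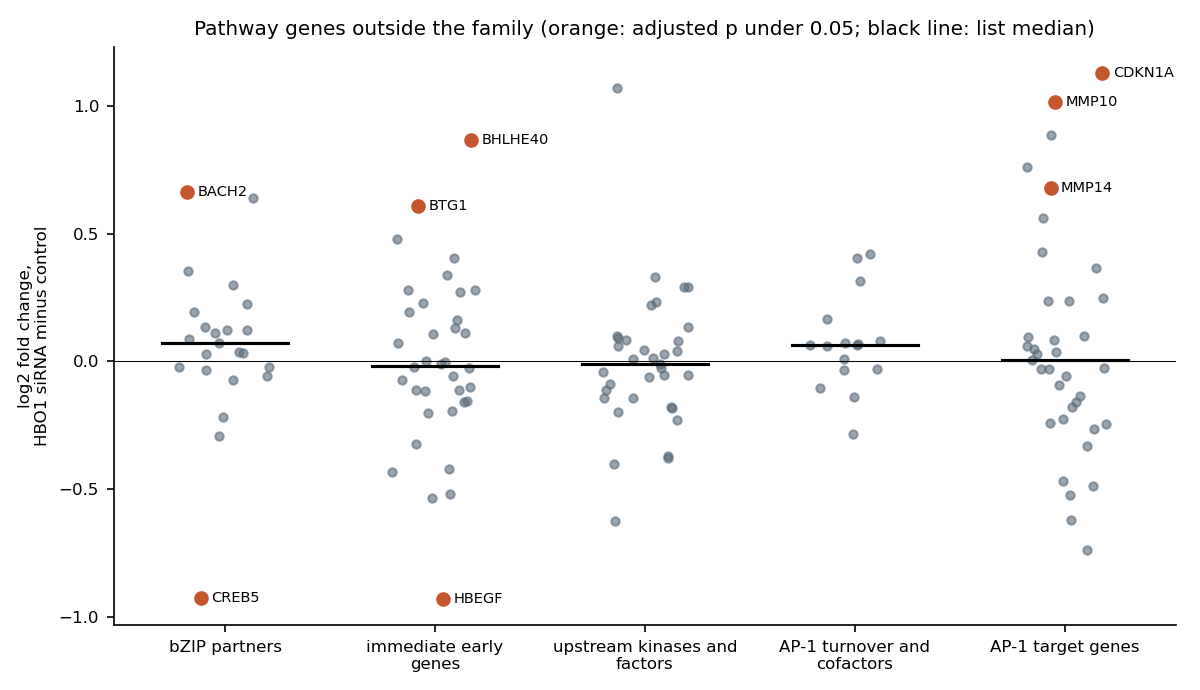
Log2 fold change, HBO1 siRNA minus control (y axis), of the measured genes of 5 lists of AP-1 partners, co-induced genes, upstream regulators, cofactors and targets (x axis), each point a gene by its brightest probe. Called genes are orange and named, and the black list medians lie between -0.02 and 0.07.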

How the data were processed

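The authors deposited a table of mean bead intensity with a detection p-value per probe and array, per the file headers, and a second table taken from its values to be log2 intensity. Per the submitters' processing notes the tools were GenomeStudio and lumi, whose versions and roles those notes do not state. Raw array medians ran from 205.4 to 242.6 and the lowest signals from 131.7 to 165.6, so the intensity table was taken as not normalised. All 6 columns of the authors' log2 table share a median of 6.31; how it was normalised or background-corrected is not stated.

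Intensities were corrected and quantile-normalised by neqc's steps in limma 3.58.1 (R 4.3.3), with negative controls inferred from detection p-values and an offset of 16. Probes with detection p under 0.05 on at least 3 of 6 arrays were tested with lmFit and eBayes on group alone. Benjamini-Hochberg adjustment ran over 21333 probes, with a call at an adjusted p under 0.05. Symbols came from the platform annotation, which names 1 gene for 30109 probes, updated through Entrez identifiers with RefSeq. The fit was tested on simulated data with values drawn independently for each probe and array. They held no deviations shared between arrays, so that test does not bear on the calls given here. Depth has no counterpart on arrays, so the number of arrays limits precision.

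Members and lists were chosen with earlier results of these data known. Named genes were every member probe, KAT7, up to 4 called genes per list and direction (or, with 0 called, the 2 with the smallest p), and the 5 genes nearest to FOSL1; others are marked. The alternatives were median scaling, the authors' values, an offset of 50, uncorrected background, all probes without a detection filter, detection p under 0.01 on all 6 arrays, a replicate block, a trended and robust prior, each array left out, and, for lists, the mean of a gene's probes.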

Additional observations from a re-analysis of the deposited data

How the results depend on the processing

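The number of probes called in limma was 582, and it was 979 with the authors' values, 1808 without background correction, 1020 with an offset of 50, 247 with no detection filter, 1136 with a detection p under 0.01 on all 6 arrays, 1886 with a trended and robust prior, and between 1 and 268 on leaving out 1 array. With median scaling 38.3% of the called probes were higher, against 54.0% with quantile normalisation. Of the member probes, 2 were called, against 4 with the authors' values, without background correction, with an offset of 50, with the stricter detection filter and with the trended prior, 1 with no detection filter and 0 to 1 on leaving out 1 array. Leaving out arrays took the log2 fold change of FOSB from -0.42 to 0.058, FOSL2 from -0.092 to 0.105, ATF3 from -0.25 to 0.44 and MAFF ILMN_1700413 from -0.33 to 0.16, and JUND was at -0.0091 with median scaling. The signs of FOSL1, JUN, JUNB, EGR1 and MAFF ILMN_1680139 and ILMN_2322375 held under all 14 alternatives.

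The bZIP list had 0 calls with no detection filter, 4 with the trended prior and 0 without any 1 array. The immediate early list had 5 without background correction and with the trended prior, and 0 to 1 without 1 array. The upstream list had 2 with the authors' values, median scaling, an offset of 50, the stricter filter or the mean of probes, and 3 without background correction or with the trended prior. The cofactor list had 2 without background correction, with the stricter filter and with the trended prior. The target list had 0 to 2 without 1 array. The cause of these shifts was not tested.

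Replicate numbers were not used as pairs in the main fit, and they matched the arrays only in part. The deviations of same-numbered arrays correlated at 0.262, -0.0187 and 0.217 for replicates 1, 2 and 3. Replicates 1 and 3 each correlated best with their own number. Control replicate 1 correlated at -0.278 with HBO1 siRNA replicate 3, and control replicate 3 at -0.214 with HBO1 siRNA replicate 1. Control replicate 2 correlated best with HBO1 siRNA replicate 3 (0.0897). The source of the shared deviations was not tested. With the replicate block 282 probes, 0 member probes, 1 bZIP gene and 1 immediate early gene were called, and the adjusted p was 0.0508 for FOSL1 and 0.0537 for MAFF ILMN_2322375. BTG1 (0.0532), CREB5 (0.0762), HBEGF (0.0562) and MMP14 (0.0717) also lost their calls with the block.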

Other observations

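Some single early response genes and AP-1 targets, named below, varied widely between arrays of one group. Of 37 measured AP-1 targets, 8 had a within-group SD above the 90th percentile of all tested genes, as did 5 of 36 immediate early genes, 2 of 23 bZIP partners, 2 of 35 upstream kinases and factors and 1 of 16 turnover and cofactor genes. Outside the targets, these counts lie near the share that the 90th percentile sets for all tested genes. This percentile is not matched for intensity, and some of the genes counted were close to background, such as the immediate early gene PTGS2. Of the targets counted, SPRR1B was detected on 2 of 3 control and 1 of 3 HBO1 siRNA arrays. FN1 was detected on 2 of 3 arrays in each group, and the other targets counted were detected on all 6 arrays. The genes named next were chosen after their values were seen. IL6, an inflammatory cytokine, read 9.39, 9.61 and 10.48 on control replicates 1, 2 and 3 and 8.49, 9.06 and 10.07 on the HBO1 siRNA replicates. SGK1, a kinase induced by serum and glucocorticoids, read 10.46, 11.37 and 11.39 against 9.93, 10.71 and 11.32. HMOX1, the inducible heme oxygenase, read 8.57, 9.29 and 9.65 against 9.05, 9.82 and 10.34, and IL1A, a cytokine released by stressed cells, 9.97, 10.85 and 10.87 against 9.24, 9.85 and 10.37. In these 4 genes replicate 1 was the lowest array and replicate 3 the highest in both groups, and none of the 4 was called between the groups (adjusted p from 0.267 to 0.586). Some of the other genes counted shared this order, such as DUSP1 and PTGS2, and some did not. MMP2 was highest on replicate 2 in both groups, and SPP1, JDP2 and FBXW7 were lowest in HBO1 siRNA cells on replicate 3. The cause of the spread was not tested.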
